A study of Mus musculus with 12 samples.

Results

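A set of 10 genes of fatty acid uptake and handling was followed across embryonic mouse hearts with and without the histone chaperone HIRA in the mesoderm. They were *Fabp3*, *Fabp4*, *Fabp5*, *Cd36*, *Lpl*, *Slc27a1*, *Cpt1a*, *Cpt1b*, *Pparg* and *Ppara*, chosen by gene symbol, and all 10 were found among the 20368 genes of the value table. Hearts of CD1 embryos were sequenced at embryonic day 11.5 (E11.5) and E12.5, with 3 libraries in each of 4 groups. Controls were Mesp1Cre;Hira+/fl and mutants were Mesp1Cre;Hira-/fl. All groups therefore carried Mesp1Cre, an insertion of Cre at the *Mesp1* gene, and 1 floxed *Hira* allele, and controls kept a wild type second allele where mutants had a null allele. Cre expressed from *Mesp1* acts in the early mesoderm that gives rise to the heart, so cells that enter the heart from other sources are not targeted. Where cells recombined, controls were heterozygous for *Hira* rather than wild type. Nothing in the labels says whether libraries of a group came from separate embryos or litters, so the p-values below measure the spread between these libraries.

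Fatty acids reach the heart as free acids bound to albumin or as triglyceride in lipoproteins. Lipoprotein lipase (*Lpl*) releases them at the capillary wall, and CD36 and the transport protein FATP1 (*Slc27a1*) take them up. Inside cells they are carried by fatty acid binding proteins: FABP4 in capillary endothelium, adipocytes and macrophages, FABP3 in muscle and FABP5 in many tissues. CPT1A and CPT1B attach them to carnitine for entry into mitochondria, and PPARα and PPARγ are nuclear receptors that bind fatty acids and switch on genes of this pathway. The embryonic heart lives mainly on glucose and lactate, and its reliance on fatty acids grows with maturation.

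The genes lie on 7 chromosomes of GRCm38. *Fabp5* (chromosome 3, 10012548 to 10016607, + strand) and *Fabp4* (chromosome 3, 10204347 to 10208576, - strand) lie 187739 bases apart, with the family members *Pmp2* and *Fabp9* between them. *Fabp3* is on chromosome 4, *Cd36* on 5, *Pparg* on 6, *Lpl* and *Slc27a1* on 8, *Ppara* and *Cpt1b* on 15 and *Cpt1a* on 19. The 3 binding proteins have 4 exons each, but their transcripts share no exact run longer than 14 bases (*Fabp3* and *Fabp4*), and reads of one are thus told apart from those of the others. The last exon of *Fabp3* overlaps 81 bases of *Zcchc17* on the other strand, and *Cpt1b* lies inside the readthrough gene model *Gm44502* on its own strand. The use of strand in the authors' counting is not given in the sources used here.

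Promoter sequence of the genes was read from RefSeq on GRCm38.p6, as 250 bases before to 50 after each listed transcription start. Of the 10 genes, 6 had an entry. PPARs bind as heterodimers with RXR to 2 copies of the site AGGTCA spaced by 1 base. The windows below are those of the genes whose control and mutant libraries stood apart at E12.5 and which had an entry, with the first window of *Slc27a1*. Capitals mark this site on either strand, which *Cd36* holds once, on the - strand relative to the gene, and the other windows shown lack.
Cd36, chr5:17835847-17836146, - strand: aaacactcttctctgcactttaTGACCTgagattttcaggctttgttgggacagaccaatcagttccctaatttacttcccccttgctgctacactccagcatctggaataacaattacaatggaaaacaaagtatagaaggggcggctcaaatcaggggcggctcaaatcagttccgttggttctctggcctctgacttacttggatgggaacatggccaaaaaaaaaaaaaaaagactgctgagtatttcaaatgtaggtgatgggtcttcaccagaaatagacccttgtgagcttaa
Fabp3, chr4:130308488-130308787, + strand: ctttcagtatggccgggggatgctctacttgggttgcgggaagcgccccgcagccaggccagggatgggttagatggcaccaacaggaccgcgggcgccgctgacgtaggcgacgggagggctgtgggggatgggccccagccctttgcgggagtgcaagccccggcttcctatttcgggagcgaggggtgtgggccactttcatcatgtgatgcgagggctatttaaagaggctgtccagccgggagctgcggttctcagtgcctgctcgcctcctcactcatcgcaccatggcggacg
Slc27a1, chr8:71568621-71568920, + strand: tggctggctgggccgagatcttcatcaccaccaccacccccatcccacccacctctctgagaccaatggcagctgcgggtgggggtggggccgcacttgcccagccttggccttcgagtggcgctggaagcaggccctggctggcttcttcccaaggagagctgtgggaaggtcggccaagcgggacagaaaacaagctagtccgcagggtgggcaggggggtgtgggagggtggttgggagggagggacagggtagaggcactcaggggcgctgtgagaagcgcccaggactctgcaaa

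The *Cd36* window lies inside the gene's annotated span, at a start downstream of the first. Of the 10 windows of these genes, 4 held the single site, which occurs in 16.3% of all 32851 promoter windows of this length on either strand. None held the repeat with 1 base between copies (AGGTCANAGGTCA), found in 0.0396% of all windows. A match is a description of the letters and not a binding site.

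Counts were recovered from the deposited values, and levels are given as CPM, which are counts relative to library size scaled by edgeR's TMM method, or as RPKM, which are also per kilobase of gene length, where genes are compared. The libraries held 11994148 to 17483982 counts. *Hira* itself was measured at 68.4 to 85.5 CPM in control and 56.7 to 74.5 CPM in mutant hearts at E11.5, and at 60.9 to 86.0 and 71.0 to 80.5 CPM at E12.5. Its log2 fold change was -0.26 (SE 0.14) at E11.5 and -0.01 (SE 0.12) at E12.5, and counts per gene do not show whether the floxed part was removed. The paper reports recombination from PCR on limb DNA, from lost reads of the deleted exon in its RNA-seq and from reduced HIRA protein in mutant hearts. Reads of Y-linked genes marked 3 of 3 E11.5 controls as male, and 1 of 3 libraries in each other group. Libraries also differed in how level depended on gene length: the log2 change per doubling of length ranged from -0.227 (E11.5 mutant 3) to 0.151 (E12.5 control 1), with group means of -0.071 (E11.5 control), -0.052 (E11.5 mutant), 0.095 (E12.5 control) and 0.027 (E12.5 mutant). Cardiomyocyte markers were high in every library (summed 17218 to 25512 CPM).

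The muscle-type and general binding proteins dominated the set. In E12.5 control hearts, expression per length was 401 ± 8.16 RPKM (SD, n = 3) for *Fabp3* and 322 ± 21.0 for *Fabp5*, followed by *Cpt1b* at 106 ± 8.86, *Lpl* at 72.4 ± 7.06 and *Cd36* at 29.2 ± 1.83. *Fabp4* (21.8 ± 11.8) overlapped both *Cd36* above it and *Cpt1a* (13.5 ± 2.95) below it. *Slc27a1* stood at 7.23 ± 0.826 RPKM, while *Ppara* (0.784 ± 0.168) and *Pparg* (0.705 ± 0.172) were both under 1 RPKM and overlapped. Other neighbours in this order did not overlap. At E11.5 the controls had the same top 5 genes, with *Fabp3* (437 ± 103 RPKM) and *Fabp5* (400.4 ± 109) overlapping, and *Fabp4* was lower in the order, at 5.46 ± 2.40 RPKM. In E12.5 mutants *Fabp4* stood at 4.92 ± 2.66 RPKM, below *Slc27a1* (10.9 ± 1.71) and *Cpt1a* (10.7 ± 2.54) without overlap.

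**Figure D1:**
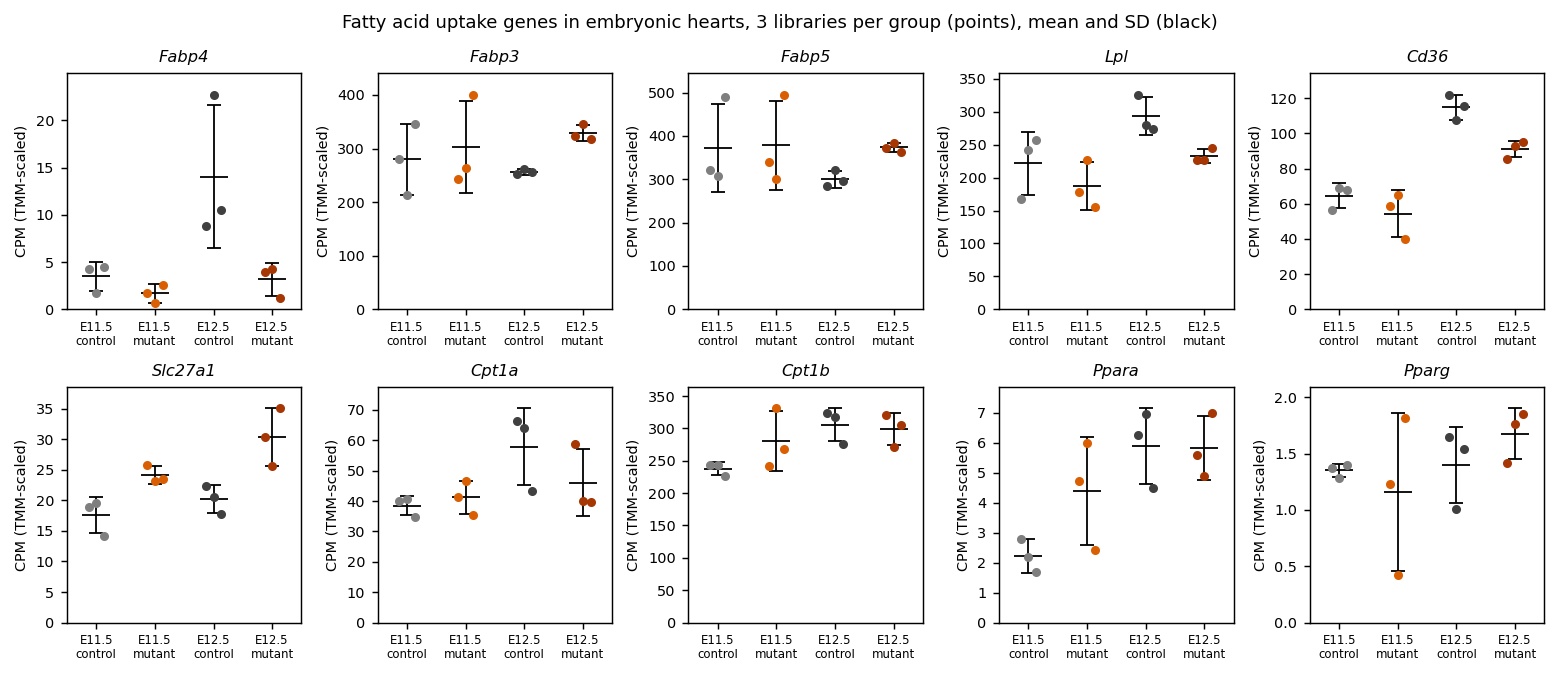
Level of each gene in every library, in CPM from 0 upwards, by group. Points are libraries, black marks the mean and bars 1 SD over 3 libraries. *Fabp4* is highest in the 3 E12.5 control hearts (8.81 to 22.7 CPM), with the mutants at 1.19 to 4.29.

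Mutant hearts at E12.5 had less *Fabp4* than control hearts and slightly less *Cd36* and *Lpl*, alongside slightly more *Fabp3*, *Fabp5* and *Slc27a1*. The genes were chosen with results of these libraries in view, so their genotype differences are a description and carry no p-value here. At E12.5, 6 of the 10 genes had control and mutant libraries that did not overlap, 3 higher and 3 lower in mutants, against 26.3% of the 12257 genes tested. Of these, 2 (*Fabp4* lower, *Slc27a1* higher) were past both thresholds for a changed gene, namely 0.05 for the adjusted p and 1.5-fold for the difference, which 2.95% of all genes tested were. All 6 were past the first threshold alone, as were 5.0% of all genes. With all 12 libraries in 1 fit, *Fabp3*, *Fabp4*, *Fabp5* and *Cd36* were no longer past it. Each of these genes also lost it when certain single libraries were left out. At E11.5, where 9 of the 10 had enough reads to be tested, 1 (*Slc27a1*) did not overlap, against 16.3% of 12197 genes, and none was past the thresholds (edgeR, 1 at an unadjusted p under 0.05, and 0 with DESeq2), against 0.115%. Nothing is read from these counts, since the choice of genes used the same contrast. The median log2 fold change of the set was 0.02 at E11.5 and -0.03 at E12.5, beside 0.00 for all genes tested.

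*Fabp4* counts were low, at 11 to 405 reads per library. In control hearts the levels were 4.30, 1.73 and 4.48 CPM at E11.5 and 8.81, 22.7 and 10.5 CPM at E12.5. In mutant hearts they were 1.75, 0.665 and 2.59 CPM at E11.5 and 3.99, 4.29 and 1.19 CPM at E12.5. The E12.5 groups did not overlap and the E11.5 groups did. The mutant level at E12.5 was 4.43-fold lower (log2 fold change -2.15, SE 0.43), and that at E11.5 had a log2 fold change of -1.10 (SE 0.52). In whole hearts, fewer cells of a type and less RNA per cell cannot be told apart. Control 2 was the highest library at E12.5, and without it the log2 fold change was -1.61 and no longer past the thresholds. The same held without mutant 1 (-2.34) and with all 12 libraries sharing 1 estimate of spread (-2.16), while 10 of 13 alternatives kept the call. Within each sex the order was the same: the male libraries stood at 10.5 (control) and 3.99 CPM (mutant), and the females at 8.81 and 22.7 against 4.29 and 1.19 CPM. At E11.5 a term for sex moved the value to -0.42, and there all controls were male.

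*Fabp3* and *Fabp5*, whose products carry fatty acids in muscle and in many other cells, were each higher in all 3 E12.5 mutant hearts than in any E12.5 control. *Fabp3* was measured at 252, 262 and 256 CPM in the E12.5 controls and 323, 346 and 317 CPM in the mutants, a log2 fold change of 0.36 (SE 0.07). *Fabp5* stood at 283, 322 and 295 CPM in these controls and 373, 385 and 362 CPM in the mutants, a log2 fold change of 0.31 (SE 0.07). Both differences were well short of 1.5-fold. At E11.5 both genes spread widely in either genotype, with *Fabp3* at 280.3, 214 and 345 CPM in controls and 243, 264 and 400.4 CPM in mutants. The *Fabp5* levels then were 322, 308 and 490.1 CPM in controls and 340.3, 300.1 and 495 CPM in mutants. Replicate 3 was the highest library of its group for both genes and both genotypes at E11.5, and these are the 2 libraries whose levels fell most with gene length. The groups overlapped at that stage (log2 fold changes of 0.11, SE 0.23, and 0.02, SE 0.24). A term for sex moved these values to 0.53 for *Fabp3* and 0.42 for *Fabp5*, and neither was called.

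*Lpl* and *Cd36* act at the capillary wall and at the cell surface. *Lpl* was measured at 326, 281 and 273 CPM in E12.5 controls and 227, 226 and 245 CPM in E12.5 mutants, a log2 fold change of -0.34 (SE 0.08). *Cd36* stood at 122, 107 and 115 CPM in the controls and 85.7, 92.8 and 95 CPM in the mutants, a log2 fold change of -0.33 (SE 0.08). Every mutant library of both genes was below every control. The E11.5 libraries overlapped for both. *Lpl* was at 167, 242 and 257 CPM in controls and 179, 227 and 155 CPM in mutants (log2 fold change -0.25, SE 0.20). *Cd36* was at 56.5, 69.2 and 67.9 CPM in controls and 58.8, 64.9 and 39.7 CPM in mutants (-0.25, SE 0.18). The direction was thus the same at both stages, but under 1.5-fold, and the E11.5 differences were of the order of their standard errors. With a term for sex *Cd36* moved to -0.69 at E11.5, over 1.5-fold, but it was not called.

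*Slc27a1*, the gene of the transport protein FATP1, was the 1 gene of the set whose genotypes stood apart at both stages. At E11.5 it was measured at 19.0, 19.6 and 14.2 CPM in controls and 25.8, 23.2 and 23.4 CPM in mutants (log2 fold change 0.45, SE 0.16). In E12.5 hearts it stood at 22.3, 20.5 and 17.8 CPM in controls and 30.4, 25.6 and 35.1 CPM in mutants (0.59, SE 0.13). Mutant libraries were the higher ones in each case. The E12.5 difference was 1.5-fold, at the very limit of the call, and only 2 of 13 alternatives kept it past both thresholds. Its log2 fold change ran from 0.47 (without mutant 3) to 0.70 (without mutant 2), and other settings that lost the call lay between them: 0.66, 0.60 and 0.50 without controls 1, 2 and 3 and 0.58 without mutant 1.

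The carnitine palmitoyltransferases overlapped between genotypes at both stages. *Cpt1a*, the form of liver and many other tissues, was at 40.1, 40.5 and 34.8 CPM in E11.5 controls and 41.4, 46.5 and 35.5 CPM in E11.5 mutants. At E12.5 it was at 66.5, 64.0 and 43.4 CPM in controls and 58.7, 40.0 and 39.6 CPM in mutants, a log2 fold change of -0.33 (SE 0.18). Control 3 was far below the other 2 controls at that stage and within the mutant range. *Cpt1b*, the muscle form, was several times more abundant per length than *Cpt1a*. It stood at 244, 243 and 227 CPM in E11.5 controls, 242, 331 and 268 CPM in E11.5 mutants, 323, 318 and 276 CPM in E12.5 controls and 321, 271 and 305 CPM in E12.5 mutants. The log2 fold changes of *Cpt1b* were 0.24 (SE 0.14) at E11.5 and -0.03 (SE 0.09) at E12.5.

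The nuclear receptor genes gave few reads. *Ppara* had 43, 34 and 24 reads in E11.5 controls, 73, 99 and 28 in E11.5 mutants, 95, 124 and 73 in E12.5 controls and 83, 83 and 106 in E12.5 mutants. At E11.5 it was below the minimum level for testing, and the genotypes overlapped in CPM (1.68 to 2.80 against 2.42 to 5.98). At E12.5 they overlapped too (log2 fold change -0.02, SE 0.22). *Pparg* had 7 to 30 reads in every library, with log2 fold changes of -0.26 (SE 0.50) and 0.27 (SE 0.31) at the 2 stages. Differences smaller than these errors were not detectable at this depth, and larger ones could be missed as well.

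**Figure D2:**
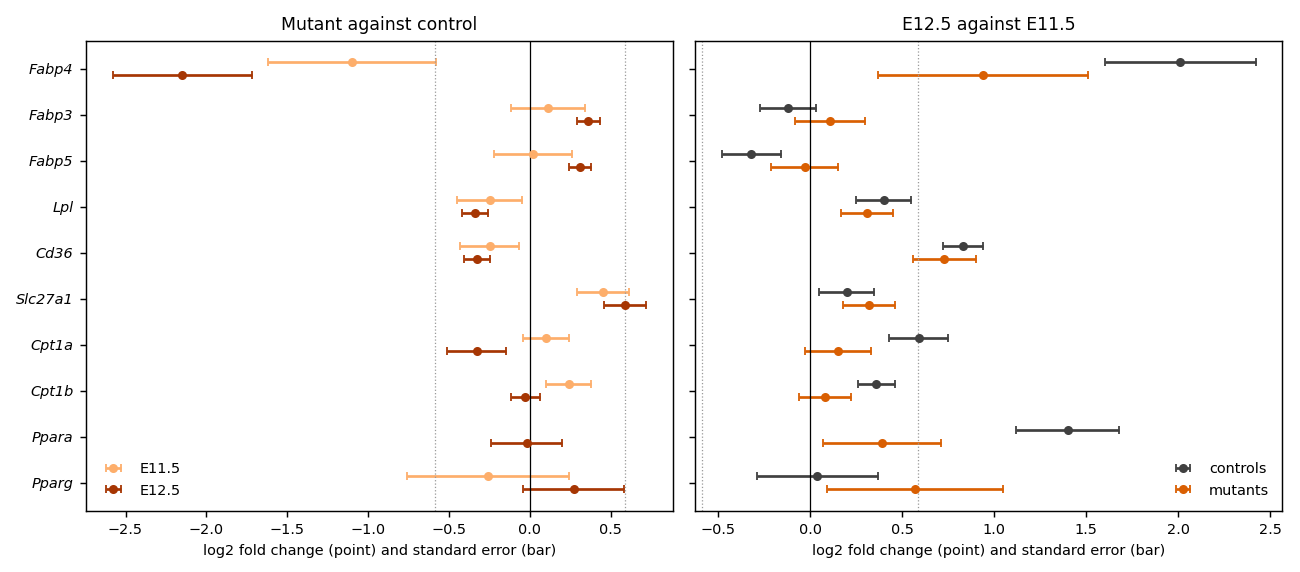
Log2 fold changes of each gene, mutant against control (left) and E12.5 against E11.5 (right), with bars of 1 SE and dotted lines at 1.5-fold. *Ppara* was not tested between genotypes at E11.5. *Fabp4* lies farthest left between genotypes (-2.15 at E12.5) and farthest right between stages in controls (2.01).

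The set was also followed over time, separately in control and mutant hearts, which share no library. Each of these comparisons does share libraries with the genotype comparisons that were known when the genes were chosen. A gene chosen for being high in E12.5 controls is favoured to rise in controls, so the p-values and counts here are not independent evidence of a rise. In control hearts *Fabp4*, *Ppara*, *Cd36* and *Cpt1a* rose from E11.5 to E12.5 and none fell. These 4 of the 10 genes passed both thresholds (edgeR's quasi-likelihood test), against 5.28% of the 12252 genes tested, or 2.85% counting rises alone. In all, 6 did not overlap between stages, all higher at E12.5, against 37.4% of all genes in either direction. The median log2 fold change of the set was 0.38 beside 0.01 for all genes. In mutant hearts none of the 10 passed (edgeR, 1 at an unadjusted p under 0.05, and 1 with DESeq2), against 0.556% of 12238 genes, and 1 (*Cd36*) did not overlap, against 17.4%. The set's median there was 0.31, beside -0.01 for all genes.

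*Fabp4* rose 4.02-fold in control hearts, or 2.01 on the log2 scale (SE 0.41, adjusted p = 0.0243, edgeR). Its value was 0.94 (SE 0.57, adjusted p = 0.668, edgeR) in mutants, where the libraries overlapped. *Ppara* rose 2.64-fold in controls (1.40, SE 0.28, adjusted p = 0.0216, edgeR) and its mutant value was 0.39 (SE 0.32, adjusted p = 0.749, edgeR). For *Cd36* the rise in controls was 1.78-fold (0.83, SE 0.11, adjusted p = 0.00501, edgeR) and the mutant value was of similar size (0.73, SE 0.17, adjusted p = 0.144, edgeR), with every E12.5 library above every E11.5 library in both genotypes. *Cpt1a* rose 1.5-fold in controls (0.59, SE 0.16, adjusted p = 0.0395, edgeR), at the limit of the call. *Cpt1b* passed the p threshold at a smaller size (0.36, SE 0.10, adjusted p = 0.0404, edgeR).

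*Lpl* libraries did not overlap between stages in controls, but the difference missed the threshold (0.40, SE 0.15, adjusted p = 0.100, edgeR). The values of *Slc27a1* (0.20, SE 0.15), *Pparg* (0.04, SE 0.33), *Fabp3* (-0.12, SE 0.15) and *Fabp5* (-0.32, SE 0.16) did not pass either.

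Sex and stage were partly confounded in these comparisons, because all E11.5 controls were male and 1 of 3 E12.5 controls was. With a term for sex none of the 4 rises in controls passed: on the log2 scale *Fabp4* was at 1.59 (adjusted p = 0.411, edgeR), *Ppara* 1.01 (adjusted p = 0.483, edgeR), *Cd36* 0.84 (adjusted p = 0.103, edgeR) and *Cpt1a* 0.17 (adjusted p = 0.720, edgeR). The male E12.5 control stood at 10.5 CPM of *Fabp4*, above the 3 male E11.5 controls (1.73 to 4.48 CPM). Its *Cd36* level of 115 CPM and *Ppara* level of 4.50 CPM were also above all 3. *Cpt1a* in that library (43.4 CPM) was close to theirs (34.8 to 40.5 CPM).

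Single libraries decided some of these calls. *Fabp4* in controls kept its call in 8 of 13 alternatives and lost it without E11.5 control 1 (2.19), E11.5 control 3 (2.22), E12.5 control 1 (2.25) or E12.5 control 2 (1.47). *Ppara* kept it in 9 of 11 and lost it without E11.5 control 3 (1.24). It fell below the level for testing without E12.5 control 1 or 2. *Cpt1a* kept its call in 3 of 13 alternatives, without E11.5 control 2, without E12.5 control 3 or without the filter on low values, and ran from 0.17 to 0.76. *Cd36* kept it in 12 of 13. The mutant value of *Cd36* passed with DESeq2 and with all 12 libraries in 1 fit (0.73 and 0.74).

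Whether the genotype difference changed between the stages was tested directly over all 12 libraries, and no gene of 12270 passed (0.0%, edgeR, 551 at an unadjusted p under 0.05, with DESeq2 calling 42). For *Fabp4* the difference between stages was -1.04 (SE 0.79) on the log2 scale, so a *Fabp4* effect particular to E12.5 was not shown. The largest value relative to its error in the set was that of *Ppara* (-1.01, SE 0.44).

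*Fabp4* is made by several cell types, and marker lists of these were read in the same libraries. The 12 macrophage markers together gave 43.3 to 114 CPM in E11.5 controls, 19.5 to 23.7 in E11.5 mutants, 109 to 146 in E12.5 controls and 61.3 to 82.1 in E12.5 mutants. Mutants were thus below controls at both stages without overlap, in the direction of *Fabp4*. Of the 10 macrophage genes tested at E12.5, 5 fell (*Csf1r*, *Mrc1*, *Cx3cr1*, *Adgre1* and *Tyrobp*, edgeR), against 1.36% of all genes tested. At E11.5 1 fell (*C1qb*), against 0.0656% of all genes. Between stages in mutants 5 of 10 macrophage genes rose (edgeR), against 0.294% of all genes, while *Fabp4* did not pass. In controls 1 of 11 macrophage genes rose (*Mrc1*, edgeR), against 2.85% of all genes. Library by library the levels did not always go together. E11.5 control 2 was lowest of its group for both (43.3 CPM of macrophage markers and 1.73 CPM of *Fabp4*). E12.5 control 2 was highest of its group for *Fabp4* (22.7 CPM). Its macrophage markers (109 CPM) were level with those of control 1 (110 CPM) and below those of control 3 (146 CPM). E11.5 control 1 had 114 CPM of macrophage markers, within the range of the E12.5 controls, and 4.30 CPM of *Fabp4*, below all of them. The part of macrophages in the *Fabp4* difference was not tested.

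The 14 general endothelial and endocardial genes summed to 1888 to 1906 CPM in E12.5 controls and 1812 to 2282 in E12.5 mutants, and to 1449 to 1772 and 1759 to 2449 CPM at E11.5. Their median log2 fold change in mutants was 0.46 at E11.5 and 0.10 at E12.5, opposite in sign to that of *Fabp4*. At E12.5, *Egfl7*, a secreted factor of endothelium, was higher under 1.5-fold (0.57, SE 0.10, adjusted p = 0.0123, edgeR), and *Cldn5*, a tight junction gene of endothelium, fell (-1.06, SE 0.25, adjusted p = 0.0350, edgeR). The coronary and capillary list overlapped between genotypes at E12.5 (175 to 237 CPM in controls and 149 to 211 in mutants). Its median log2 fold change was -0.68 at E11.5 and -0.25 at E12.5, the same sign as that of *Fabp4*. In this list 1 of 7 genes tested at E12.5 fell, against 1.36% of all genes. It was *Aplnr*, the apelin receptor (-1.54, SE 0.25, adjusted p = 0.00944, edgeR). The median of the lymphatic list was 0.04 at E11.5 and -0.41 at E12.5. Lymphatic markers summed to 113 to 120.3 CPM in E12.5 controls and 88.6 to 102 CPM in mutants. Of these, *Lyve1*, found on lymphatic endothelium and on tissue macrophages, fell (-2.29, SE 0.20, adjusted p = 0.000814, edgeR). Under 1.5-fold, *Prox1*, a transcription factor of lymphatic endothelium and of cardiomyocytes, was lower (-0.44, SE 0.10, adjusted p = 0.0280, edgeR) and *Pdpn*, a membrane glycoprotein, higher (0.42, SE 0.10, adjusted p = 0.0398, edgeR). The part of endothelial cells in the *Fabp4* difference was not tested.

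Between stages in controls, 3 of the 14 general endothelial genes rose 1.5-fold or more (edgeR), against 2.85% of all genes. In the coronary and capillary list 2 of 7 rose (*Cav1* and *Aplnr*) and 2 fell, against 2.43% of all genes that fell. The latter were *Car4*, a carbonic anhydrase (-1.73), and *Rgcc*, a cell cycle regulator (-1.28), with SE 0.31 and 0.28 (edgeR). The marker lists, like the 10 genes, were chosen with results of these libraries known, so their p-values are not independent evidence of a direction.

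Adipocyte markers were near 0. The list summed to 2.30 to 4.43 CPM in all libraries, of which *Adrb3* gave most, and the mean of *Adipoq*, its defining gene, was at most 0.220 CPM in any group. Genes listed as markers of skeletal muscle, a tissue that also expresses *Fabp3* and *Cpt1b*, summed to 286 to 453 CPM in E12.5 controls and 776 to 847 CPM in E12.5 mutants, and to 386 to 428 and 744 to 963 CPM at E11.5. Most of this sum came from *Acta1*, which the embryonic heart also expresses (mean 206 CPM in E12.5 controls and 372 in mutants), and *Tnni2* (56.4 and 336 CPM). These were the 2 of 6 genes tested that rose at E12.5 (edgeR), against 1.59% of all genes. *Tnnt3* (9.19 and 30.4 CPM), *Myh3* (0.397 and 4.49 CPM) and *Myog* (0.628 and 1.48 CPM) also had higher means in E12.5 mutants but were not called. Only 6 of the 9 genes of this list reached the level for testing, so for some of those named here no test was made. *Ckm* (66.6 and 48.8 CPM) and *Actn3* (7.86 and 7.36 CPM) had lower means and were not called either. The skeletal muscle determination factors *Myod1* (0.0967 and 0.621 CPM) and *Myf5* (0 and 0.0660 CPM) averaged under 1 CPM in every group. By in situ hybridisation the paper found more *Tnni2* RNA in E12.5 mutant hearts, above all in the ventricular free wall. It also reports *Tnnt3* as upregulated in mutant hearts. The part of skeletal muscle in the *Slc27a1* and *Fabp3* values was not tested. Red cell markers were lower in E12.5 mutants (1984 to 2596 CPM) than in controls (3699 to 5720 CPM).

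**Figure D3:**
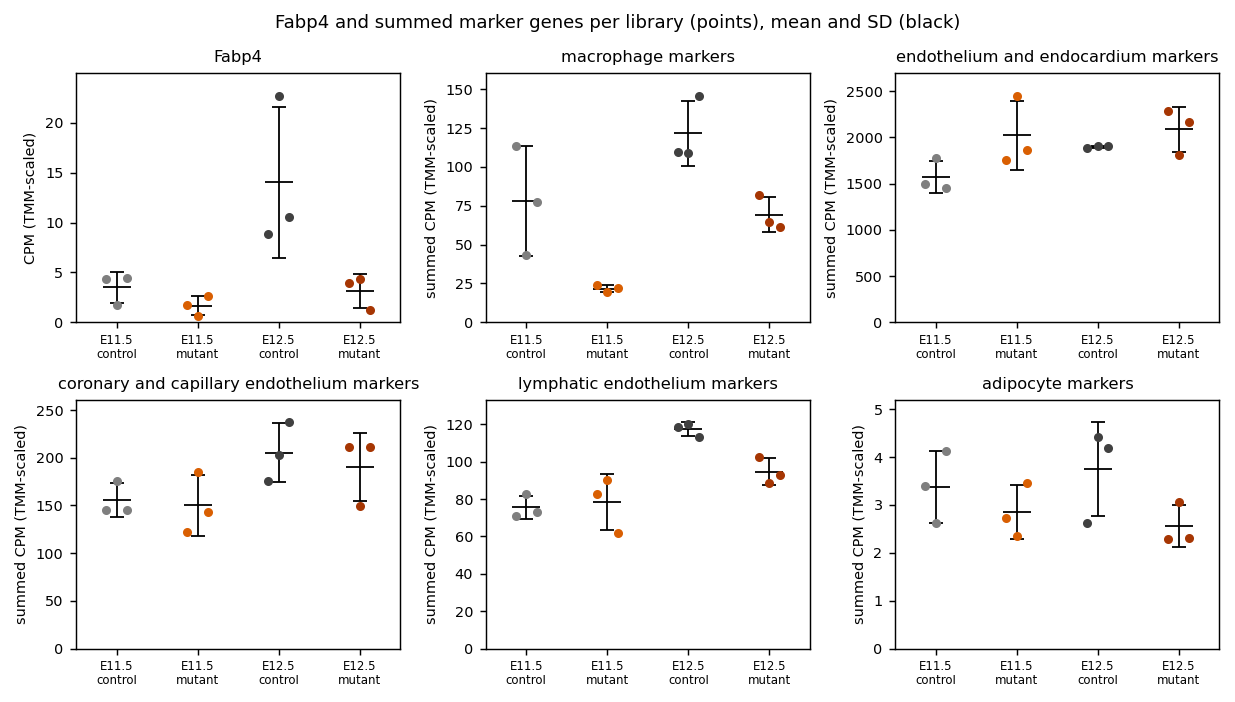
*Fabp4* and the summed level of 5 marker lists in every library, in CPM from 0 upwards. Points are libraries, black marks the mean and bars 1 SD over 3 libraries. Macrophage markers are below controls in mutants at both stages (61.3 to 82.1 against 109 to 146 CPM at E12.5), and general endothelial markers overlap at E12.5.

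The binding protein genes are short (*Fabp3* 640, *Fabp4* 642 and *Fabp5* 932 bases in the authors' models, beside a median of 2875 for genes tested at E12.5), so the length trend of the libraries bears on them. When each library's trend was taken out by offsets, *Fabp3* moved from 0.36 to 0.22 and *Fabp5* from 0.31 to 0.21 between genotypes at E12.5, both then short of the p threshold. *Fabp4* moved from -2.15 to -2.28 and kept its call. Between stages in controls, *Fabp3* turned from -0.12 to 0.32 and *Fabp5* from -0.32 to 0.01, so no direction is given for either. *Cd36*, *Lpl* and *Slc27a1* moved by at most 0.10 in any of these comparisons. *Ppara*, with the longest gene model (7528 bases), moved from 1.40 to 1.15 and kept its call in controls.

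**Figure D4:**
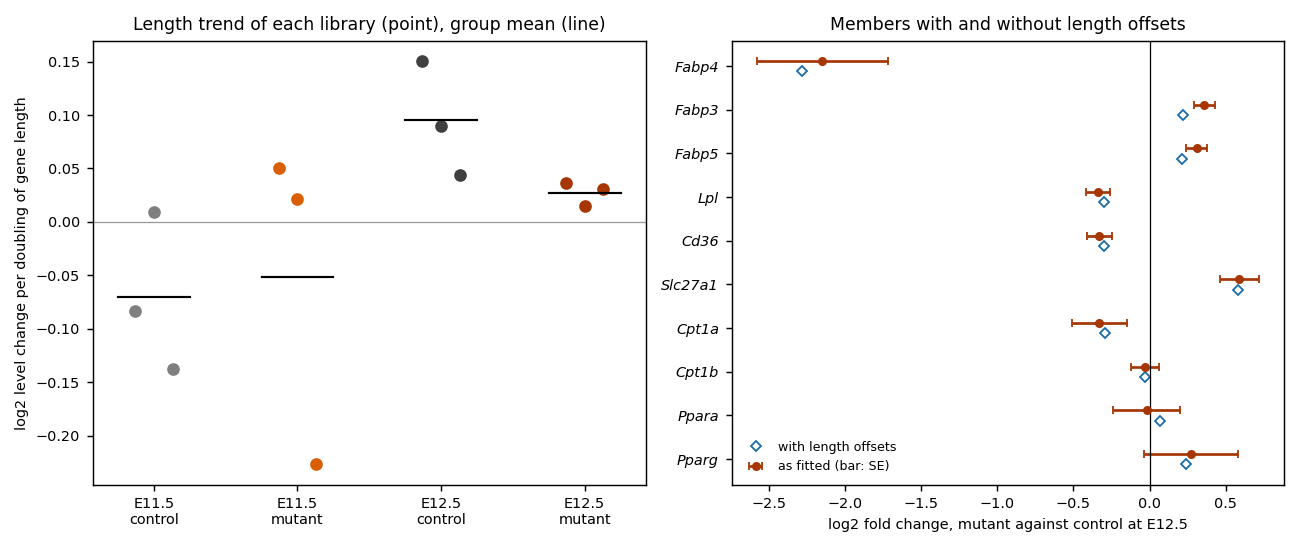
Left, the log2 change in level per doubling of gene length in each library (points) with group means (lines). Right, log2 fold changes of the genes between genotypes at E12.5 as fitted (circles, bars of 1 SE) and with length offsets (diamonds), where *Fabp3* and *Fabp5* move towards 0 and *Fabp4* does not.

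The wider pathway was read through 9 lists that hold 102 further genes, of which 100 were in the files. Between genotypes at E12.5, 78 of these were tested and 1 was changed, against 2.95% of all genes. It was *Acot1*, an acyl-CoA thioesterase of the cytosol that PPARα induces. These lists too were chosen with results known, so neither this p nor those that follow are independent evidence of a direction. *Acot1* was at 10.8, 9.20 and 10.2 CPM in controls and 18.2, 18.8 and 15.5 CPM in mutants (0.80 on the log2 scale, SE 0.13, adjusted p = 0.00844, edgeR), and all 13 alternatives kept the call. *Echs1*, a β-oxidation enzyme (0.37), *Ucp2*, a mitochondrial carrier (0.41), and *Plin3*, a lipid droplet coat protein (0.26), passed the p threshold under 1.5-fold (SE 0.08, 0.09 and 0.07, edgeR). With *Acot1*, 4 of the 78 passed the p threshold alone, near the share of 5.0% over all genes. No gene of the lists beyond the 10 fell. At E11.5 none of 78 passed (edgeR, 14 at an unadjusted p under 0.05, and DESeq2 called 2).

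Genes around *Fabp4*, *Lpl* and PPAR were also measured. *Gpihbp1*, which anchors lipoprotein lipase to capillaries, had 0 to 40 reads and a log2 fold change of -1.09 (SE 0.76) at E12.5. *Angptl4*, an inhibitor of the lipase, had values of -0.65 (SE 0.26) at E11.5 and -0.44 (SE 0.20) at E12.5 and did not pass. At E12.5 the PPAR family gene *Ppard* (-0.13, SE 0.11), the coactivator gene *Ppargc1a* (-0.23, SE 0.11) and the PPAR target *Pdk4* (-0.28, SE 0.15) did not pass between genotypes. Nor did *Cpt2* (0.25, SE 0.09), *Slc25a20* (0.05, SE 0.09), *Slc27a4* (-0.05, SE 0.12), *Acsl1* (0.17, SE 0.11) or *Plin2* (-0.03, SE 0.08), which act in the carnitine shuttle, uptake, activation and storage.

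Between stages in controls, 79 of these genes were tested, with 4 rising and 2 falling, against 5.28% of all genes changed in either direction. *Ppargc1a*, the coactivator of mitochondrial gene expression, rose (0.81, SE 0.14, adjusted p = 0.0143, edgeR), as did *Pdk4*, which restrains glucose oxidation (0.60, SE 0.13, adjusted p = 0.0284, edgeR). *Acacb*, which makes the malonyl-CoA that inhibits CPT1 (0.71, SE 0.15, adjusted p = 0.0252, edgeR), and *Cav1*, of endothelial caveolae (0.91, SE 0.20, adjusted p = 0.0287, edgeR), rose too. *Lipg*, an endothelial lipase, fell 4.33-fold (-2.12, SE 0.34, adjusted p = 0.0112, edgeR), and *G0s2*, an inhibitor of triglyceride lipase, fell (-0.66, SE 0.15, adjusted p = 0.0307, edgeR). With length offsets *Acacb* (0.41), *G0s2* (-0.31) and *Pdk4* (0.54) were no longer called. The calls held in 11 of 13 alternatives for *Ppargc1a* and *Lipg*, 8 for *Cav1*, 7 for *Acacb*, 6 for *Pdk4* and 5 for *G0s2*, and with the sex term that of *Cav1* alone remained (1.34). Without E12.5 control 1 none of the 6 was called. In mutants none of 77 passed (edgeR, 6 at an unadjusted p under 0.05, and DESeq2 called 2).

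**Figure D5:**
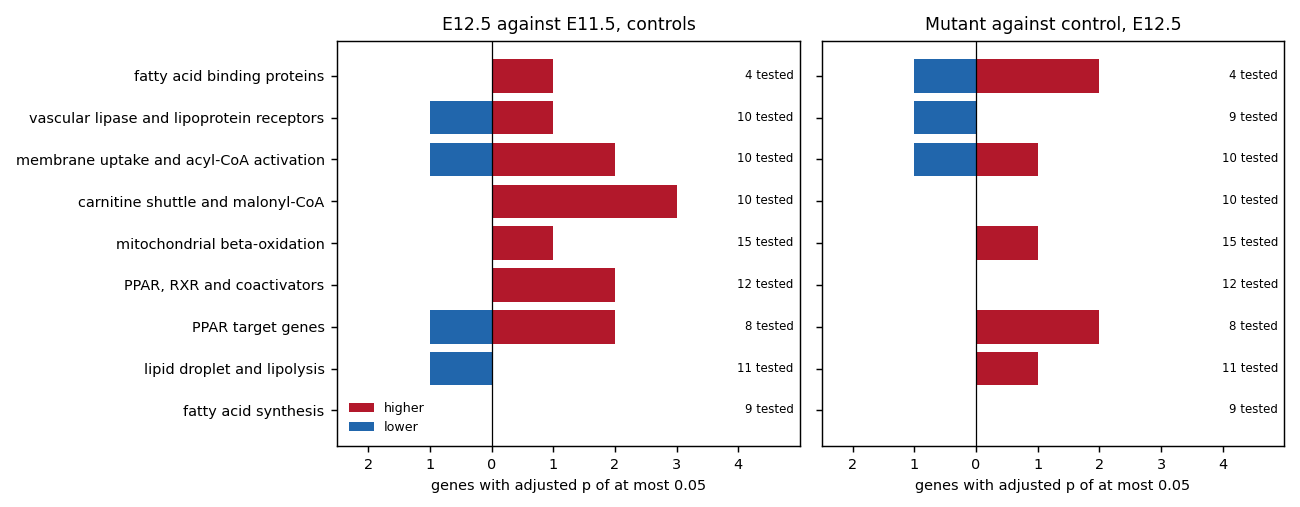
Number of genes in each of 9 fatty acid lists that pass the adjusted p threshold of 0.05 (edgeR), higher (red, to the right) or lower (blue, to the left), between stages in controls and between genotypes at E12.5. The 10 genes of the set are counted in their lists, and a gene need not reach 1.5-fold. The carnitine list has 3 of 10 genes higher with stage in controls, against 5.63% of all genes tested. It has 0 in either direction between genotypes, against 5.0%.

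Across all 12 libraries and 11464 genes, the log2 CPM pattern most like that of *Fabp4* was that of *Cldn5* (Pearson r = 0.920), followed by *Hcls1* (0.910), *Tnnt1* (0.902), *Aplnr* (0.897) and *Wipf3* (0.897). These values describe a ranking, and the libraries share group, depth and length trend. Within the set, *Cd36* (0.563), *Cpt1a* (0.529) and *Lpl* (0.471) had a positive r with *Fabp4*, *Cpt1b* was at 0.137, and *Fabp3* (-0.062), *Fabp5* (-0.148) and *Slc27a1* (-0.401) were negative. With group means taken off, the leading genes were others: *Mfap2* (0.920), *Abhd17c* (0.917), *Scx* (0.906), *Sh3gl3* (0.903) and *Etv5* (0.893). Then *Fabp5* (0.614) and *Fabp3* (0.579) were positive and *Cd36* (-0.629) and *Lpl* (-0.562) negative, so the likeness to *Cd36* and *Lpl* lay between groups and not within them. Short genes share the length trend of a library, and its part in the within-group values was not tested.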

How the data were processed

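RNA-seq data of 12 libraries from embryonic hearts (4 groups of 3) were analysed. The submitters' processing notes name mm10, Bowtie2 and DESeq. The counting program, annotation and use of strand are not given in the sources used here, and the sequencer is named differently in the study's text and in the series record. The authors deposited values named RPKM, which are treated as a score because each equals a whole count multiplied by gene length and a library factor. Their comparison tables hold the mean raw count per group, an expected count unit as deposited by the authors, and the authors' fold changes, z scores and p-values, which were not used. The library factors were solved from the deposited mean counts, and counts were recovered for 17827 genes, each within 1.78e-05 of a whole number, with 1597 genes at 0. The step was tested on simulated data.

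Recovered counts were tested in R 4.3.3 with edgeR 4.0.16 (quasi-likelihood, TMM), keeping genes whose RPKM averaged 0.5 or more across the fitted libraries. Changed genes had a p, adjusted by Benjamini-Hochberg, not above 0.05, and differed 1.5-fold or more. SE were derived from edgeR's F statistic. An exact permutation test of 3 against 3 cannot go under 0.1 and was not used. Alternatives were DESeq2 1.42.0, median-ratio scaling, no filter on low values, a sex term, the replicate number as a block, all 12 libraries in 1 fit, no fold threshold and each library left out. Length offsets were added after seeing the data. Libraries with at least 100 Y-linked counts were called male. Counting error gives only a lower limit of the error.

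The 10 genes and all lists were chosen with earlier results of these data known. Named are these 10, list genes that passed, 10 fixed pathway genes, marker genes that passed, and the 5 genes most like *Fabp4* (Pearson r of log2 CPM with a prior of 0.5, mean RPKM of at least 1) before and after group means were taken off. Older symbols of 4 genes were matched by gene identifier. *Acsl3*, *Acsl4*, *Apln* and *Alas2* were not analysed here.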

Additional observations from a re-analysis of the deposited data

How the results depend on the processing

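Of the 10 genes, 2 were changed between genotypes at E12.5. This became 1 without the filter on low values, with median-ratio scaling, with DESeq2, with the replicate block and with length offsets, 0 with all 12 libraries in 1 fit, and 6 with no fold threshold, and it ran from 0 to 2 with single libraries left out. The count of 4 in controls between stages became 0 with the sex term and ran from 1 to 4 with libraries left out. The count of 0 in mutants became 1 with DESeq2 and with all 12 libraries in 1 fit. Over the whole fatty acid lists, 3 genes were changed at E12.5, 1 with all 12 libraries in 1 fit and 1 to 4 with libraries left out. In controls 10 were changed, 1 with the sex term, 6 with all 12 libraries, 6 with length offsets and 1 to 16 with libraries left out. At E11.5 the count of 0 became 2 with DESeq2 and with all 12 libraries, and 1 with the replicate block and with length offsets. In mutants the count of 0 became 3 with DESeq2, 2 with all 12 libraries and 0 to 1 with libraries left out, and for the difference between stages DESeq2 called 1. No log2 fold change that passed both thresholds reversed. Of the log2 fold changes of single genes over all alternatives, 1554 kept their call or, with no call, moved by less than 1 SE, 62 lost a call, 21 gained one and 58 uncalled values moved by 1 SE or more. Over all genes, the 14 changed at E11.5 ranged from 0 to 248 across alternatives, the 362 at E12.5 from 122 to 494, the 647 in controls from 19 (sex term) to 1407 and the 68 in mutants from 1 to 227. The causes were not tested.

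Whether replicate numbers pair the libraries was not settled by the values, above all at E11.5. Deviations of same-numbered libraries correlated at -0.029, 0.425 and 0.293 between genotypes at E11.5 and at 0.023, 0.059 and 0.023 at E12.5, and 4 of 6 and 3 of 6 libraries there correlated best with their own number. With the replicate block the changed genes numbered 73, 424, 770 and 36 in the 4 comparisons (14, 362, 647 and 68 without it). Of the 10 genes, 1 was changed at E12.5 with it, and 3 in controls.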

Other observations

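The library E12.5 control 2 was the highest of the 12 for *Fabp4* (22.7 CPM) and also for *Cldn5* (6.22 CPM), *Aplnr* (16.8 CPM) and *Gpihbp1* (2.24 CPM), genes named here because they peaked there. The summed coronary and capillary list did not (203 CPM, against 237 in E12.5 control 3), and the general endothelial sum was 1905 CPM beside 1906 in control 3. *Meox2*, named after its values were seen, encodes a transcription factor known to act with TCF15 on fatty acid uptake genes in heart endothelium. It was below the level for testing, with 22, 45 and 13 reads in the control hearts of E12.5, 5, 4 and 23 in the mutants of that stage, 4, 1 and 5 in E11.5 controls and 0 in all 3 E11.5 mutants. Its highest library was again E12.5 control 2, and the genotypes overlapped at E12.5. *Tcf15* had 3 to 19 reads per library and a log2 fold change of -0.35 (SE 0.37) at E12.5.

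*Acot1* was close between genotypes at E11.5 (log2 fold change 0.04, SE 0.15) and higher in mutants at E12.5 (0.80, SE 0.13), and in controls it had a value of -0.58 (SE 0.14) from E11.5 to E12.5. The test of the difference between stages did not pass (0.76, SE 0.18, adjusted p = 0.360, edgeR). In mutants from E11.5 to E12.5 the value was 0.17 (SE 0.14).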
